A study of Homo sapiens with 8 samples.

Results

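The ubiquitin mark on histone H2A, H2AK119ub, was compared between RING1A/B-DKO and wild-type HAP1 cells over every region of the deposited table. All 34703 regions were members, of 34703 in all, and they were taken without regard to their values. Of the 8 ChIP-seq libraries of the series, 4 measured H2AK119ub, 2 from RING1A/B-DKO cells and 2 from wild-type cells. The other 4 measured H3K27me3 in the same genotypes and were used as a second readout of the same regions. HAP1 is a near-haploid human line that descends from the leukaemia line KBM-7. The RING1A/B-DKO cells came from HAP1 cells already lacking RING1A, in which RNF2, the gene for RING1B, was then edited with Cas9. They were cloned from sorted single cells and chosen by immunoblot for the absence of RING1B. The sources used here do not say how many clones were taken, so p-values measure the spread of these duplicate samples, and whether it includes a spread between clones is unknown. Wild-type cells carried neither edit.

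RING1A and RING1B are the catalytic E3 ligases of Polycomb repressive complex 1 (PRC1), and each can place a single ubiquitin on a lysine near the end of H2A. Every form of PRC1 holds one of these ligases. The canonical forms are drawn to chromatin by CBX proteins that read H3K27me3, the mark of Polycomb repressive complex 2 (PRC2). Variant forms contain RYBP or YAF2 in place of CBX and can reach chromatin without H3K27me3. H2AK119ub is in turn bound by PRC2 through JARID2 and AEBP2, and the marks are found together at repressed developmental genes. The comparison asks how much of the mark is measured in cells without either ligase, and where.

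The values were the authors' normalized counts per region, in whole numbers, and the method of normalization is not stated in the sources used here. Every difference in level between libraries below rests on that normalization, and the sequencing depth is unknown. The regions covered 459.8 Mb of hg19 with a median width of 6 kb. The totals over all regions were 17159 and 20938 normalized counts in the RING1A/B-DKO libraries, against 1575661 and 1866278 in the wild-type libraries. The mean was 19048.5 ± 2672 in RING1A/B-DKO and 1720969.5 ± 205497 in wild type (SD, n = 2 each), so that wild type held 90.3 times as much. The genotypes did not overlap, and a two-sided exact permutation test gave p = 0.333, its lower limit with 2 against 2 libraries. Neither targeted gene was examined, since the regions carry no gene names and no hg19 annotation was used here.

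In wild-type cells H2AK119ub was measurable in nearly all regions and varied moderately between them. The median density was 3.22 normalized counts per kb, and the 10th and 90th percentiles were 1.88 and 6.42, a 3.42-fold range. In wild-type replicate 1, 131 regions were at 0, and in replicate 2, 34 regions were. Values of 10 or more were found in 71.3% and 79.9% of regions. The wild-type libraries ordered the regions alike, with a Spearman correlation of 0.934 over the 34703 counts and 0.695 once the counts were divided by width. Regions share each library's depth and are not replicates, so these correlations are descriptions. Density was nearly unrelated to width (Spearman -0.043) and increased with the wild-type H3K27me3 density of the same regions (0.671).

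In RING1A/B-DKO cells most regions held no count at all. No input library was used here, so the counts that were left cannot be told apart from background reads, and the level left below means counts, not modified histone. Library by library, 71.8% and 67.7% of regions were at 0, 18.6% and 20.3% were at 1, and 4.07% and 5.27% held between 3 and 9. Values of 10 or more were found in 87 and 124 regions, and none reached 100, whereas 3644 and 4507 regions did in the wild-type libraries. Both RING1A/B-DKO libraries were at 0 in 18968 regions (54.7%) and both were above 0 in 5262 regions (15.2%).

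**Figure D1:**
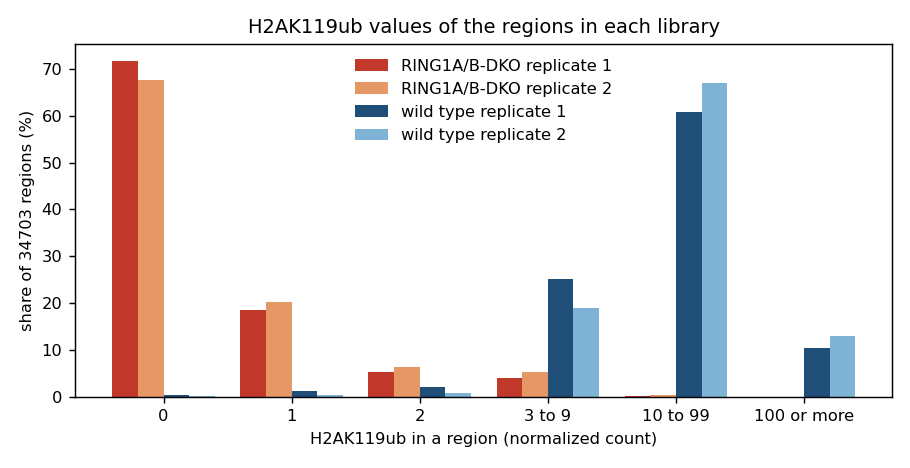
The bars give, for each of the 4 H2AK119ub libraries, the share of the 34703 regions (percent, vertical axis) whose normalized count fell in each class of value (horizontal axis). The RING1A/B-DKO libraries had 71.8% and 67.7% of regions at 0, while the wild-type libraries had 60.8% and 66.9% of regions between 10 and 99.

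The counts that were left were higher in wider regions, with a Spearman correlation of 0.60 between RING1A/B-DKO count and width. The highest value in each RING1A/B-DKO library, 39 and 49, belonged to a region of chromosome 15 from 66222201 to 66582600. The same region was also highest in each wild-type library, with 5120 and 5578. It lies in a stretch of chromosome 15 (60000001 to 90000000) that was denser than the other chromosomes in every H2AK119ub library, as given below. Of the 62 regions that had 10 or more in both RING1A/B-DKO libraries, the median width was 261.2 kb and 2 were narrower than 10 kb. Between the RING1A/B-DKO libraries the Spearman correlation was 0.360 over counts and 0.183 over counts per kb, far below the values of the wild-type pair. With most values at 0 or 1, nothing is read from these correlations.

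The RING1A/B-DKO values lay below both wild-type values in both libraries in 34452 regions, 99.3% of all. In the other 251 regions the wild-type mean never exceeded 9, and its median was 2.5 normalized counts. The RING1A/B-DKO mean was above the wild-type mean in 0 regions and equal to it in 4.

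Tested region by region with limma, H2AK119ub fell in nearly all regions and rose in 0. A region was tested when at least 2 of the 4 libraries reached 10, with a sum of at least 15, which left 23700 regions. These were the regions with 10 or more in both wild-type libraries, so the test set was chosen by the higher group and a fall was favoured. Of these, 23699 were called lower in RING1A/B-DKO and 0 higher (Benjamini-Hochberg adjusted p under 0.05), a share called of 100% after rounding. Without adjustment, too, 0 regions were higher at p under 0.05. Fitted without the filter, H2AK119ub was lower in 33846 of 34701 regions and higher in 0 (limma, Benjamini-Hochberg adjusted p under 0.05). In the authors' deposited table, 30992 of 34703 regions (89.3%) passed both a log2 fold change below -1 and an unadjusted p under 0.05, and 0 had one above 1. The 11003 untested regions were narrower, with a median width of 2.6 kb against 10 kb in the tested ones, and held 4.82% of the wild-type counts. In 97.7% of them both RING1A/B-DKO values were below both wild-type values.

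The median log2 fold change was -4.74 (RING1A/B-DKO minus wild type, on log2 of the normalized count + 1), with a median SE of 0.30. This scale has a floor, because a RING1A/B-DKO value cannot go below 0. In 10089 tested regions (42.6%) both RING1A/B-DKO libraries were at 0, and the fold change of such a region only restates its wild-type level. Set against a floor of 3 counts summed over both RING1A/B-DKO libraries, H2AK119ub was at least 10-fold lower in 8019 of these 10089 regions. The median of these floor-based differences was 15-fold and the highest was 339-fold. The floor treats a normalized count as a read. The scaling is unknown, so these are lower bounds only if that holds. Across tested regions the log2 fold change and the wild-type count had a Spearman correlation of -0.905. With the libraries scaled to equal totals, which removes a loss common to all regions by construction, 10156 regions were called lower and 431 higher. Of those lower calls, 10074 were regions at 0 in both RING1A/B-DKO libraries. Leaving out wild-type replicate 1 or 2 gave a median log2 fold change of -4.907 or -4.6, with fewer regions called lower. The spread in these fits came mainly from the RING1A/B-DKO pair, which has none in regions at 0 in both. All such regions were called, so those calls follow from the zeros.

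**Figure D2:**
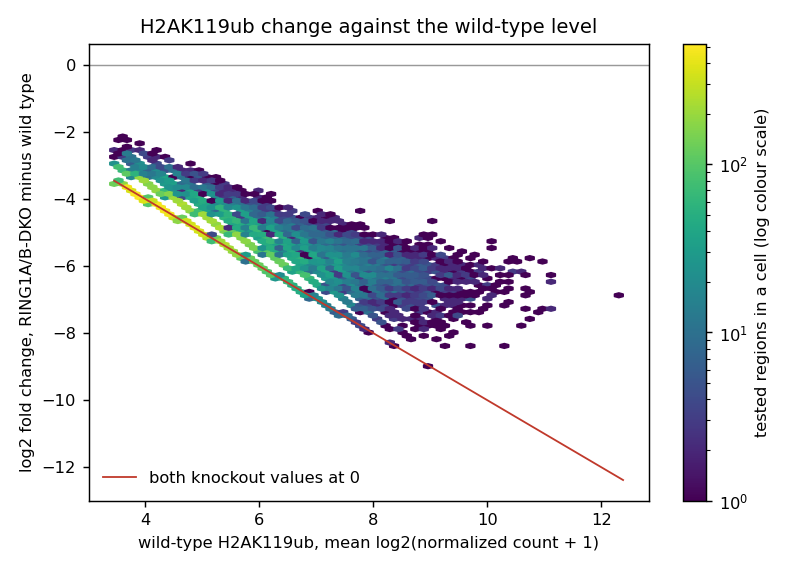
Each hexagonal cell counts tested regions (colour, log scale) by their mean wild-type H2AK119ub on the log2(normalized count + 1) scale (horizontal) and their log2 fold change, RING1A/B-DKO minus wild type (vertical). All 23700 regions lie below 0, between -8.99 and -2.14, and the 10089 regions at 0 in both RING1A/B-DKO libraries lie along the red line, which marks the limit of the scale.

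Wide regions held most of the higher counts left in RING1A/B-DKO cells, so the remaining level was best read there. Among the 3470 regions of 30 kb or more, all of which were tested and called lower, the RING1A/B-DKO mean was 1.11% of the wild-type mean at the median region. The 10th and 90th percentiles were 0.426% and 2.23%. Only 111 of these regions were at 0 in both RING1A/B-DKO libraries. The remaining level exceeded 3% of wild type in 92 regions and 5% in 6, and the highest was 6.41%. The median sum over both RING1A/B-DKO libraries was still only 4 counts per region, so this range includes much counting error. In these wide regions the RING1A/B-DKO libraries had a Spearman correlation of 0.111 per kb, against 0.907 for the wild-type libraries.

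The H2AK119ub counts in RING1A/B-DKO cells spanned a narrower range of densities than those in wild type. For this, 10 bins with like numbers of regions were formed by rank of wild-type density. In the sparsest bin the density was 0.0297 and 0.0343 normalized counts per kb in the RING1A/B-DKO libraries, against 1.34 and 1.86 in the wild-type libraries. In the densest bin it was 0.056 and 0.0681 in RING1A/B-DKO, against 8.47 and 9.17 in wild type. Over the bins the RING1A/B-DKO mean therefore ran from 0.032 ± 0.0033 to 0.0621 ± 0.0085 and the wild-type mean from 1.60 ± 0.37 to 8.82 ± 0.50 (SD, n = 2 each). The bins were ranked on the wild-type values, so the wild-type gradient is set by the ranking, and the RING1A/B-DKO gradient is not. In an unplanned check without chromosome 15, the RING1A/B-DKO mean ran from 0.0321 in the sparsest bin to 0.056 in the densest. The counts left were then 2.01% and 0.660% of wild type.

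Expressed against wild type, the counts that were left amounted to 2.00% in the sparsest bin and 0.704% in the densest. The sparsest bin held 4.42% and 4.19% of all counts in the RING1A/B-DKO libraries, against 2.17% and 2.55% in the wild-type libraries. The densest bin held 12.2% and 12.1% in RING1A/B-DKO, against 20.0% and 18.3% in wild type. Scaling one library against another leaves such shares as they are, but the ranking on wild-type values itself lowers the wild-type share of the sparsest bin and raises that of the densest, so they get no test. The bins were therefore also ranked by one wild-type library and measured in the other. Ranked by wild-type replicate 1, the sparsest bin held 3.11% and 3.20% of the RING1A/B-DKO counts, against 2.50% in wild-type replicate 2. The densest bin then held 11.8% and 11.6% in RING1A/B-DKO, against 17.4% in wild-type replicate 2. Ranked by wild-type replicate 2, the sparsest bin held 4.53% and 4.42% in RING1A/B-DKO, against 2.69% in wild-type replicate 1, and the densest 11.4% and 11.1%, against 18.5%. The order was thus the same in both cross-rankings. The level left in the sparsest bin was 1.29% ranked by replicate 1 and 2.01% ranked by replicate 2, and in the densest bin it was 0.686% and 0.735%, each against the wild-type library not used for ranking.

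**Figure D3:**
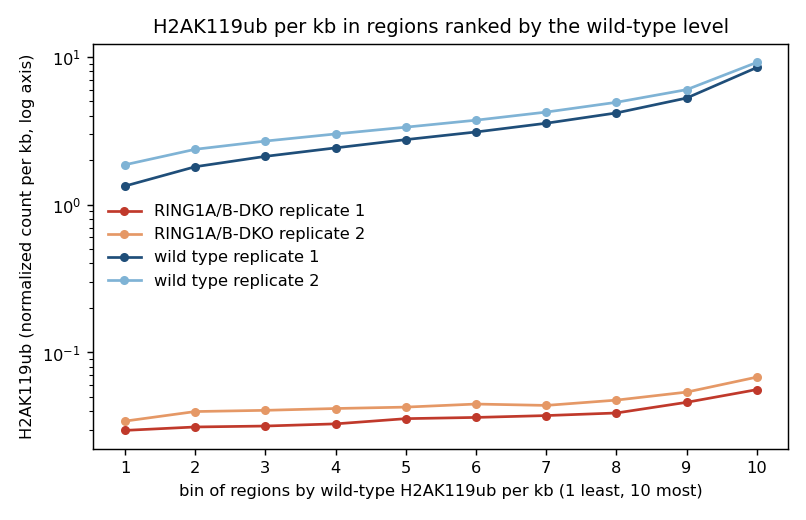
The lines give H2AK119ub density in normalized counts per kb (vertical, log axis) for each library in 10 equal bins of regions ranked by mean wild-type density (horizontal). From bin 1 to bin 10 the RING1A/B-DKO libraries moved from 0.0297 and 0.0343 to 0.056 and 0.0681, and the wild-type libraries from 1.34 and 1.86 to 8.47 and 9.17.

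The same order was found in narrow and in wide regions. For this, 5 width bins were formed and each was divided again in 5 by wild-type density. Among the narrowest, the RING1A/B-DKO density was 0.0353 in the sparsest subset and 0.0706 in the densest, beside wild-type densities of 1.69 and 8.64. Among the widest it was 0.0349 and 0.0536 in RING1A/B-DKO, beside 2.10 and 6.69 in wild type. The level left was between 0.736% and 0.855% of wild type in the densest subsets and between 1.66% and 2.10% in the sparsest, a contrast that ranking on the same wild-type values favours. Ranked by wild-type replicate 1 and measured in replicate 2, the densest subsets retained 0.730% to 0.867% and the sparsest 1.18% to 1.37%. With the replicates exchanged these were 0.784% to 0.944% and 1.61% to 1.95%, so the order held in all 5 width bins in both cross-rankings. Width on its own made little difference. The 5 width bins retained between 1.07% and 1.16% of wild type, and every tested region in 4 of the 5 bins was called lower.

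The region densest in wild-type H2AK119ub, at 196 normalized counts per kb, was also the densest in RING1A/B-DKO, at 7.5 per kb. Over all regions the 99th percentile of wild-type density was 12.6 per kb. The named regions that follow were chosen as the densest in wild type within each width bin, so their high wild-type values are a description. This 1.6 kb region of chromosome 1 (121484001 to 121485600) had 10 and 14 normalized counts in RING1A/B-DKO, against 297 and 330 in wild type. A 5.6 kb region of chromosome 6 (58773801 to 58779400) had 16 and 22 in RING1A/B-DKO, against 487 and 528 in wild type. A 1 kb region of chromosome 3 (181430201 to 181431200) had 5 and 3 in RING1A/B-DKO, against 115 and 101 in wild type. H3K27me3 in the chromosome 1 region was 289 and 203 in RING1A/B-DKO, against 236 and 236 in wild type. In the chromosome 6 region it was 519 and 449, against 390 and 322, so both were high for both marks in both genotypes. In the chromosome 3 region it was 12 and 16, against 6 and 6. In these 3 regions H2AK119ub was 26.1-fold, 26.7-fold and 27-fold lower in RING1A/B-DKO, between 3.70% and 3.83% of wild type, where the total over all regions stood at 1.11%. They fell by 4.61, 4.68 and 4.47 on the log2 scale (SE 0.22, 0.21 and 0.28), with adjusted p-values of 0.000515, 0.000434 and 0.000926 (limma). With the libraries scaled to equal totals they turned to 1.743, 1.724 and 1.619, above 0. No input library was used here, so what share of the high counts in the chromosome 1 and 6 regions is background was not tested.

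Other short and dense regions retained less. A 0.8 kb region of chromosome 17 (41381601 to 41382400) had 1 and 2 in RING1A/B-DKO, against 110 and 107 in wild type. H3K27me3 was low there in both genotypes, at 15 and 23 in RING1A/B-DKO and 7 and 14 in wild type. A 3.8 kb region of chromosome 19 (48896401 to 48900200) was at 0 in both RING1A/B-DKO libraries, against 86 and 96 in wild type. That was 60.7-fold lower against the floor of 3 counts given above. On chromosome 15, the regions from 65065201 to 65068600 and from 77316601 to 77319600 had 0 and 1, and 1 and 2, in RING1A/B-DKO. Their wild-type values were 109 and 77, and 75 and 72. In none of these did the genotypes overlap. The chromosome 15 regions here, and those named below as densest in their width bin, lie between 60000001 and 90000000. That stretch was denser than the other chromosomes in every H2AK119ub library, as given below.

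Among the densest regions of intermediate width, the 5.6 kb region of chromosome 6 given above retained 3.74% of wild type, and the others held at most 2 counts in a RING1A/B-DKO library. A 5 kb region of chromosome 1 (204072801 to 204077800) was at 0 in both RING1A/B-DKO libraries, against 121 and 108 in wild type. That was 76.3-fold lower against the floor of 3 counts. H3K27me3 there was 0 and 2 in RING1A/B-DKO, against 40 and 56 in wild type, so neither mark exceeded 2 counts in a RING1A/B-DKO library. The chromosome 15 region from 74721801 to 74729600 (7.8 kb) had 0 and 2 in RING1A/B-DKO, against 180 and 199 in wild type. The chromosome 15 region from 74896801 to 74905800 (9 kb) was at 0 in both, against 180 and 194, 124.7-fold lower against the same floor. Its H3K27me3 averaged 106.5 ± 23.3 in RING1A/B-DKO and 106.5 ± 12 in wild type (SD, n = 2 each). A 10 kb region of chromosome 19 (1445601 to 1455600) had 0 and 1 in RING1A/B-DKO, against 246 and 191 in wild type, while H3K27me3 was 251 and 243 against 222 and 256. In both of these regions H2AK119ub was at most 1 count in a RING1A/B-DKO library, while the H3K27me3 values of the genotypes overlapped. The chromosome 19 region from 18714801 to 18725600 (10.8 kb) had 1 and 2 in RING1A/B-DKO, against 245 and 216.

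The densest regions of the widest bin held at most 5 counts in a RING1A/B-DKO library. A 19.8 kb region of chromosome 1 (859401 to 879200) had 1 in each RING1A/B-DKO library, against 446 and 452 in wild type, and fell by 7.81 on the log2 scale (SE 0.14, adjusted p = 0.000204, limma). H3K27me3 in it was 12 and 4 in RING1A/B-DKO, against 121 and 113 in wild type. A 19.2 kb region of chromosome 16 (742201 to 761400) had 2 and 0 in RING1A/B-DKO, against 396 and 373. The chromosome 15 region from 75099601 to 75126800 (27.2 kb) had 5 and 4, against 525 and 545, 118.9-fold lower.

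The 3 widest regions of the table retained between 1.11% and 2.22% of the wild-type level. A 643 kb region of chromosome 22 (26181001 to 26824000) had 23 and 30 in RING1A/B-DKO, against 2007 and 2301 in wild type, 1.23% of wild type. The chromosome 22 region from 48055201 to 48671000 (615.8 kb) had 21 and 27, against 1032 and 1126 (2.22%). A 557 kb region of chromosome 1 (18089001 to 18646000) had 21 and 29, against 2134 and 2380 (1.11%). In all 3 both RING1A/B-DKO values of H3K27me3 lay above both wild-type values, for example 8797 and 7544 against 1577 and 1691 in the 615.8 kb region. This was common: the H3K27me3 totals over all regions were 3788824 and 3224813 in RING1A/B-DKO, against 2393140 and 2456126 in wild type. Mean log2 H3K27me3 was higher in RING1A/B-DKO in 21023 of the 33127 regions tested for both marks. RING1A/B-DKO densities of H2AK119ub in them were 0.0412, 0.039 and 0.0449 normalized counts per kb, close to each other although the wild-type densities were 3.35, 1.75 and 4.05.

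At the ends of the fold-change range lay regions of very high and very low wild-type level. The largest falls were on chromosome 12 from 54428001 to 54467800, chromosome 17 from 46663001 to 46721600 and chromosome 22 from 50054401 to 50133400. Their log2 fold changes were -8.99, -8.41 and -8.40, and they held at most 2 counts in either RING1A/B-DKO library, against at least 473 in either wild-type library. The smallest falls were on chromosome X from 149348401 to 149356000, chromosome 3 from 51893601 to 51897400 and chromosome 16 from 49211201 to 49217600. Their log2 fold changes were -2.14, -2.23 and -2.25, on wild-type values between 10 and 13 and RING1A/B-DKO values between 1 and 3. The uncalled region, 107194601 to 107199000 of chromosome 2, had 0 and 4 in RING1A/B-DKO, against 12 and 23 in wild type (log2 fold change -2.98, SE 1.01, adjusted p = 0.0572, limma). Without RING1A/B-DKO replicate 2 it was called (adjusted p = 0.0115, limma).

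Ranked by what was left rather than by what was there before, chromosome 15 recurred. Of the 6 regions of at least median width with the highest RING1A/B-DKO density, 3 lay on it, from 69759201 to 69767600, from 75983801 to 75991000 and from 76450601 to 76459400. Chromosome 15 held 1081 of the 34703 regions of any width. These 3 regions lie in its stretch from 60000001 to 90000000, where density was higher in wild type too, as given below. The first had 4 in each RING1A/B-DKO library, against 51 and 82 in wild type. The second had 2 and 3, against 80 and 83, and the third had 2 and 4, against 146 and 147. The others (231543201 to 231549400 of chromosome 2, and 49211201 to 49217600 and 20974801 to 20981600 of chromosome 16) rested on 1 to 3 counts per library. These regions were picked for their RING1A/B-DKO values, so the values are a description.

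Chromosome by chromosome, the density left in RING1A/B-DKO cells stayed within a narrow range except on chromosome 15. There it was 0.0601 and 0.0705 normalized counts per kb in RING1A/B-DKO, against 5.11 and 5.87 in wild type. No other chromosome exceeded 0.0421 in RING1A/B-DKO replicate 1 or 0.0519 in replicate 2. Chromosome 15 was also the densest in both wild-type libraries, and what it retained, 1.19% of wild type, was close to the 1.11% of the whole. Chromosome X had the lowest wild-type densities, 2.46 and 3.01, beside 0.0356 and 0.0388 in RING1A/B-DKO. Chromosomes 1 and 19 retained 0.943% and 0.954% of wild type, and their shares of a library were lower in RING1A/B-DKO than in wild type without overlap (11% and 10.9% against 13.0% and 12.7% for chromosome 1). Shares also did not overlap on chromosomes 9 and 17, where they were lower, and on 2, 8, 10, 15, 18, 21 and X, where they were higher. A two-sided exact permutation test gave p = 0.333 for each of these, its lower limit with duplicates. If genotype labels were exchangeable, a fraction of 0.333 of the 23 chromosomes would lack overlap on average. Shares also sum to a fixed total, so the chromosomes listed are a description. Every tested region was called lower on each chromosome other than 2, where 1980 of 1981 were.

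**Figure D4:**
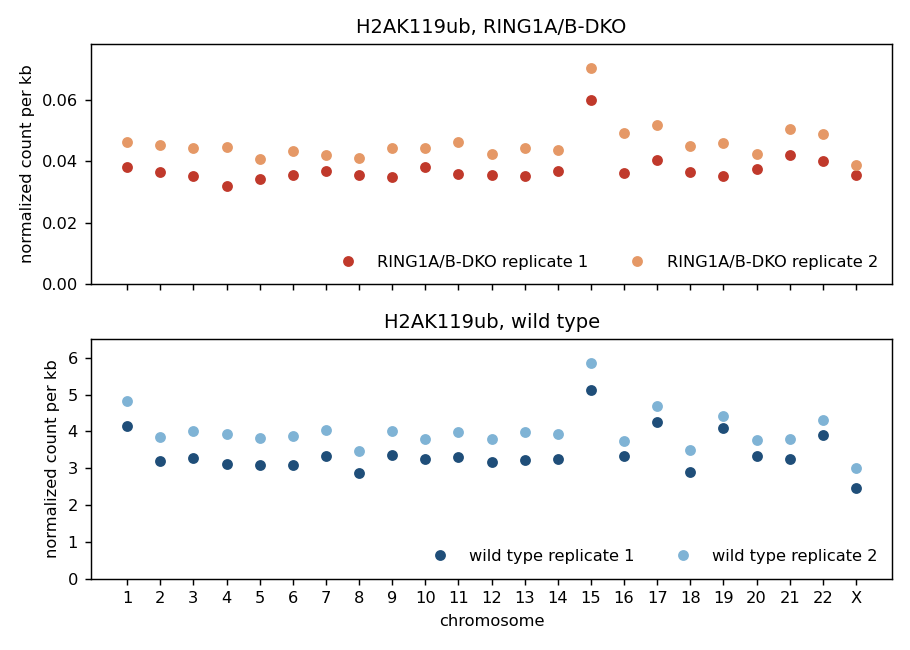
Points give H2AK119ub per kb of covered length on each chromosome in the RING1A/B-DKO libraries (upper panel) and the wild-type libraries (lower panel, on a different scale), both axes in normalized counts per kb from 0. Chromosome 15 was highest in all 4 libraries, at 0.0601 and 0.0705 in RING1A/B-DKO and 5.11 and 5.87 in wild type.

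The chromosome 15 excess lay in one stretch. In windows of 5 Mb, the 6 windows from 60000001 to 90000000 ranked first to sixth among 373 windows for RING1A/B-DKO density. This stretch was singled out after its values were seen and gets no test. Over its 474 regions the density was 0.0753 and 0.0865 in RING1A/B-DKO, against 6.57 and 7.45 in wild type. That was 2.07 and 1.95 times the density of all other chromosomes in the RING1A/B-DKO libraries, and 1.96 and 1.87 times in the wild-type libraries. The rest of chromosome 15 had 0.0368 and 0.0461 in RING1A/B-DKO, 1.01 and 1.04 times the other chromosomes. HAP1 cells are known to carry an extra copy of a long segment of chromosome 15, and the number of copies was not measured here. The H3K27me3 density of the stretch was 10.2 and 8.73 in RING1A/B-DKO, against 7.99 and 8.17 in wild type. All 432 of its tested regions were called lower in H2AK119ub, as were 22853 of 22854 on all other chromosomes, so the calls do not set it apart.

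Over the 373 windows the RING1A/B-DKO density had a median of 0.0396 and 10th and 90th percentiles of 0.033 and 0.0504 normalized counts per kb. In wild type these were 3.38, 2.78 and 5.10. The level left ran from 0.585% of wild type, on chromosome 19 from 1 to 5000000, to 1.86%, on chromosome 8 from 130000001 to 135000000. The first of these windows ranked 3 in wild-type density, at 8.02 and 8.49, and had 0.0491 and 0.0475 in RING1A/B-DKO. The second had 2.20 and 2.70 in wild type and 0.0408 and 0.0504 in RING1A/B-DKO. These windows were picked for their ratios, so the values are a description. Over all 373 windows RING1A/B-DKO density increased with wild-type density (Spearman 0.467).

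H2AK119ub fell both in regions that had less H3K27me3 in RING1A/B-DKO and in regions that had more. The regions were split into 5 equal bins by their H3K27me3 change, whose medians were -2.02, -0.44, 0.52, 1.05 and 1.55 on the log2 scale. In the bin with the largest H3K27me3 decrease, H2AK119ub was 0.0412 and 0.05 normalized counts per kb in RING1A/B-DKO, against 5.31 and 6.40 in wild type. In the bin with the largest increase it was 0.0347 and 0.0426 in RING1A/B-DKO, against 2.34 and 2.83 in wild type. The level left was 0.779% of wild type in the first bin and 1.49% in the last. Mean RING1A/B-DKO density was 0.0456 and 0.0386 per kb in these bins, and mean wild-type density 5.86 and 2.58. The higher percentage in the last bin thus comes from its lower wild-type level, not from more counts left. Every tested region was called lower in H2AK119ub in 4 of the 5 bins, and 4921 of 4922 were in the fourth.

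**Figure D5:**
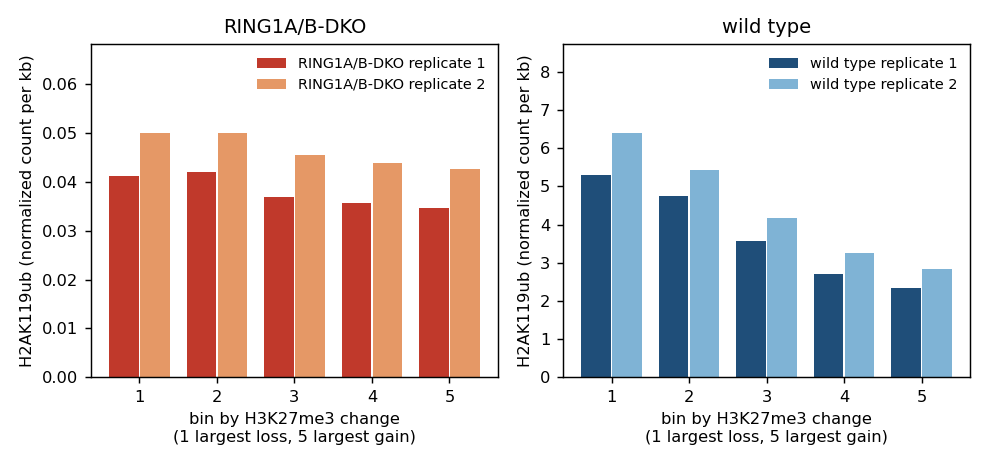
Bars give H2AK119ub in normalized counts per kb in the RING1A/B-DKO libraries (left) and the wild-type libraries (right, on a different scale) for 5 equal bins of regions by H3K27me3 change, from the largest decrease to the largest increase in RING1A/B-DKO. The RING1A/B-DKO libraries ranged from 0.0347 to 0.0421 in replicate 1 and from 0.0426 to 0.05 in replicate 2, while wild type had 5.31 and 6.40 in bin 1 and 2.34 and 2.83 in bin 5.

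The difference between the marks was tested directly in a fit of all 8 libraries. The H2AK119ub change was below the H3K27me3 change in 31046 of 33127 tested regions (93.7%) and above it in 1 (0.00302%), with 2080 not called (limma interaction, Benjamini-Hochberg adjusted p under 0.05). The median difference was -4.56 on the log2 scale. These counts rest on the authors' normalization: with TMM (trimmed mean of M-values) factors 15847 regions were below and 572 above (median -2.05), and with equal totals 14282 were below and 1402 above (median -1.58). Among the 21023 tested regions whose mean log2 H3K27me3 was higher in RING1A/B-DKO, 20960 were called, and among the other 12104, 10086 were. The regions not called had a median H3K27me3 change of -2.36 and a median of 9.5 normalized counts of H2AK119ub in wild type, against 0.63 and 24 in the called regions. The H3K27me3 change is itself part of the tested difference. More calls where H3K27me3 was higher are thus favoured by construction, and these splits are a description. In the single opposite region, on chromosome 12 from 83595201 to 83599000, H2AK119ub was 1 and 1 in RING1A/B-DKO, against 5 and 18 in wild type. Its H3K27me3 was 0 and 0 in RING1A/B-DKO, against 17 and 24 in wild type. The interaction was 1.99 (adjusted p = 0.0372, limma) and was called without wild-type H2AK119ub replicate 2 (adjusted p = 0.0038), but not without any other single library (adjusted p between 0.0564 and 0.115). In RING1A/B-DKO cells 62 regions held 10 or more counts of H2AK119ub in both libraries, and 26788 held as much H3K27me3.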

How the data were processed

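H2AK119ub and H3K27me3 ChIP-seq libraries came from RING1A/B-DKO and wild-type HAP1 cells, 2 for each mark and genotype, called biological duplicates in the labels' protocols. The authors deposited a normalized count per region and library, a whole-number score that is normalized per the file headers. Its normalization, and how regions were called, are not given in the sources used here. Bowtie2, SAMtools, Picard, bedtools, deepTools and hg19 are named in the submitters' processing notes. The authors' deposited log2 columns are log2(normalized count + 0.5), and the deposited p-value columns are unadjusted. They were used only where named. Positions are on hg19, counted from 1.

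Values were taken to log2 after adding 1, with no further scaling, and fitted region by region in limma 3.58.1 (R 4.3.3) with a mean-variance trend, and p-values were adjusted by Benjamini-Hochberg with a threshold of 0.05. The procedure was checked on simulated data. Single values per library were compared with exact permutation tests. Depth is unknown, so no counting intervals are given. Gene lists were not applied, since regions carry no gene names.

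Regions named in the text were the 3 densest in wild type within each width bin, the 3 widest, the 6 of at least median width densest in RING1A/B-DKO, the 3 smallest and 3 largest fold changes, and any uncalled region. Members, rules and tests were chosen with earlier results of these data known. The chromosome 12 interaction region and the chromosome 15 stretch were chosen after their values were seen.

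Alternatives were other pseudocounts, filters, scaling by trimmed mean of M-values (TMM) factors or to equal column totals, no trend, all libraries in the fit, a replicate block and leaving out each library. Ranking regions by one wild-type library and measuring them in the other was extended to shares and width bins after seeing the data.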

Additional observations from a re-analysis of the deposited data

Results flagged for a closer look

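The knockout effect differed between the marks. By the interaction test of all 8 libraries, the change of H2AK119ub was below that of H3K27me3 in 31046 regions, with a median difference of -4.56 on the log2 scale (limma, Benjamini-Hochberg adjustment). With TMM factors it was below in 15847 and above in 572, and with equal totals below in 14282 and above in 1402.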

How the results depend on the processing

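No log2 value or count of calls is free of the scaling between libraries, and the depth is unknown. Regions without counts in RING1A/B-DKO limit any fold change. With TMM factors, 11113 regions were lower and 45 higher (median log2 fold change -1.696), and with equal column totals 10156 and 431 (-1.143). The interaction then gave 15847 below and 572 above (-2.05), or 14282 and 1402 (-1.581). Both scalings take out a shared loss by construction. The median H2AK119ub change was -5.474 at a pseudocount of 0.5, -2.867 at 5, -4.129 without a filter and -5.207 with the stricter filter. The interaction median was -5.357 at 0.5 and -2.635 at 5, the last with 10 regions above. Leaving out each library gave 12377 to 23686 lower regions, 0 higher, medians of -4.907 to -4.600, and interactions of 30113 to 30984 below and 0 to 7 above (-4.730 to -4.418). The fewest regions were called lower without a wild-type library, where the lone library is assumed to vary like the others. The RING1A/B-DKO pair then sets most of the spread and has none in regions at 0 in both, so calls there follow from the zeros. The sparsest bin retained 1.288% with regions ranked by wild-type replicate 1 and measured against replicate 2, 2.009% with these exchanged, 1.79% over tested regions, and 1.856% to 2.914% with each library left out.

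Scaling turned the sign of the smaller named changes. With TMM factors, they became 0.5249 (chromosome 1, 121484001), 0.4401 (chromosome 3, 181430201), 0.4976 (chromosome 6, 58773801), 1.168 and 0.1908 (chromosome 15, 69759201 and 75983801), and 1.61 (chromosome 2, 231543201). The low-count regions became 1.975 and 1.513 (chromosome 16, 49211201 and 20974801), 1.862 (chromosome 3, 51893601), 2.054 (chromosome X, 149348401) and 0.4432 (chromosome 2, 107194601). With equal totals, the same regions in this order were at 1.743, 1.619, 1.724, 2.322, 1.345, 2.644, 2.934, 2.526, 2.784, 3.001 and 1.106. Equal totals also turned 0.2225 (chromosome 17, 41381601), 0.7299 and 0.7678 (chromosome 15, 77316601 and 76450601), and 0.1446 and 0.9925 (chromosome 22, 26181001 and 48055201). Leaving out wild-type replicate 1 or replicate 2 took the call from 21 of 31 named regions.

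The labels give replicate numbers in both genotypes but no link between them, and same-numbered deviations had a correlation of -1e-04 over 23700 regions. With the replicate block all 23700 regions were lower, with a median of -4.74, and the interaction had 31195 below and 1 above. The cause of these differences was not tested.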

Other observations

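The wild-type H2AK119ub libraries differed most where the mark was sparse. Replicate 1 held 0.718 times the count of replicate 2 in the sparsest bin of wild-type density and 0.924 times in the densest, with each bin between them in order. The share of a library in its 347 highest regions was 17.2% and 16.9% in the RING1A/B-DKO libraries and 15.5% and 14.6% in the wild-type libraries. Of the regions above 0 in RING1A/B-DKO replicate 1, 53.7% were above 0 in replicate 2, against 32.3% of all regions. Wider regions are more often above 0 in any library, and width was not held equal in that comparison.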
